A study of Mus musculus with 8 samples.

Results

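The SLC25 family of mitochondrial carriers was described in the left ventricle of mice whose hearts express placental growth factor (PlGF). Most of these carriers move small molecules across the inner mitochondrial membrane. Members of the family were taken as every gene of the arrays with a single symbol that begins with Slc25a, each read through its brightest probe set. They numbered 46 of the 19933 genes measured.

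Left ventricular RNA of 8 mice had been hybridised to Affymetrix mouse gene arrays, 1 array per heart, with 2 PlGF mice, 3 mice labelled PlGF/RGS4 and 3 control mice. All were of the C57/Bl6 strain and 11 weeks old, and their sex is not given. PlGF mice carried a Tet-OFF PlGF responder transgene and the tTA activator under the αMHC promoter, which is active in cardiomyocytes. PlGF/RGS4 mice carried in addition a responder for RGS4, which shortens signalling through G proteins. Doxycycline in the diet had held the transgenes off through development, and they had been on for the last 6 weeks. Control mice were littermates with only 1 of the transgenes and were matched in age, so a control heart carries the activator alone or a silent responder, and which of them is not given.

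Almost all SLC25 proteins share a fold built of repeated pairs of membrane helices, and swap a solute against another or carry it along with a proton. The outer membrane lets small solutes through its pores, so these carriers and other inner membrane transporters decide what passes between the cytosol and the matrix. In a heart, which draws most of its ATP from mitochondria, they export ATP against ADP, import phosphate and acylcarnitines, and pass the reducing power of NADH in through the malate-aspartate shuttle. A change in the mRNA of a carrier was measured here, not its protein or its transport. In whole ventricle, fewer cells of a type and less RNA per cell cannot be told apart.

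Facts of the whole set touch every value of the family. The median intensity of an array ran from 111.1 to 115.2 units. Pgf, the gene of PlGF, read 4136.3 and 916.6 units in the PlGF hearts, 210.8 to 300 in the PlGF/RGS4-labelled arrays and 211.1 to 387.1 in control. Rgs4 read 194.9 and 235 in PlGF, 186.9 to 233.7 in the PlGF/RGS4-labelled arrays and 209.5 to 281.5 in control. Neither gene was above the control range in the PlGF/RGS4-labelled arrays. For Pgf, which was high in both PlGF hearts, this goes against that label. For Rgs4 it cannot decide, since no array shows that its probe set reads the RGS4 transgene. The group is called by its label throughout. PlGF replicate 1 stood apart over all genes, with a mean correlation of 0.974 with the arrays of the other groups, against 0.991 to 0.993 for each of the remaining 7 arrays. Xist, which coats the inactive X chromosome, was low (26.9 to 50.8 units) in PlGF replicate 1, PlGF/RGS4 replicate 2 and control replicate 2, and high (2580.8 to 2958.5) in the other 5.

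Among the 46 carrier genes, 2 were lower in PlGF than in control at an adjusted p under 0.05 (limma), Slc25a34 and Slc25a13. Over all genes tested, 0.748% were lower by that rule. None of the 46 was higher (0 of 46, where 1.79% of all genes were). An unadjusted p under 0.05 was reached by 10 of the 46 (21.7%) on the lower side, against 11.7% of all genes, and by 4 (8.7%) on the higher side, against 10.9%. Both PlGF arrays lay below all 3 control arrays for 15 of the 46 (32.6%, against 19.5% of all genes) and above them for 4 (8.7%, against 14.3%). Of the 46, 31 (67.4%) had a log2 fold change below 0, against 58.7% of all genes, and the median of the family was −0.08, next to −0.03 over all genes. The family thus sat below control in PlGF by a small amount, carried by part of its members, and its range of −1.10 to 0.48 reached farther down than up. Without PlGF replicate 1, an unadjusted p under 0.05 was reached by 4 of the 46 on the lower side (8.7%, against 7.16% of all genes) and by 2 on the higher side (4.35%, against 6.95%), and 29 (63.0%, against 53.6%) were below 0. By that p alone, the share on the lower side was then near that of all genes. PlGF replicate 2 itself lay below all 3 control arrays for 21 of the 46 (45.7%, against 29.0% of all genes). With 34 carriers above the median level of all genes, the share on the lower side was 26.5% by the unadjusted rule and 38.2% with both PlGF arrays below every control array, against 16.4% and 24.5% of the genes that bright. On the higher side both shares were 11.8%, against 14.0% and 19.2%.

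**Figure D1:**
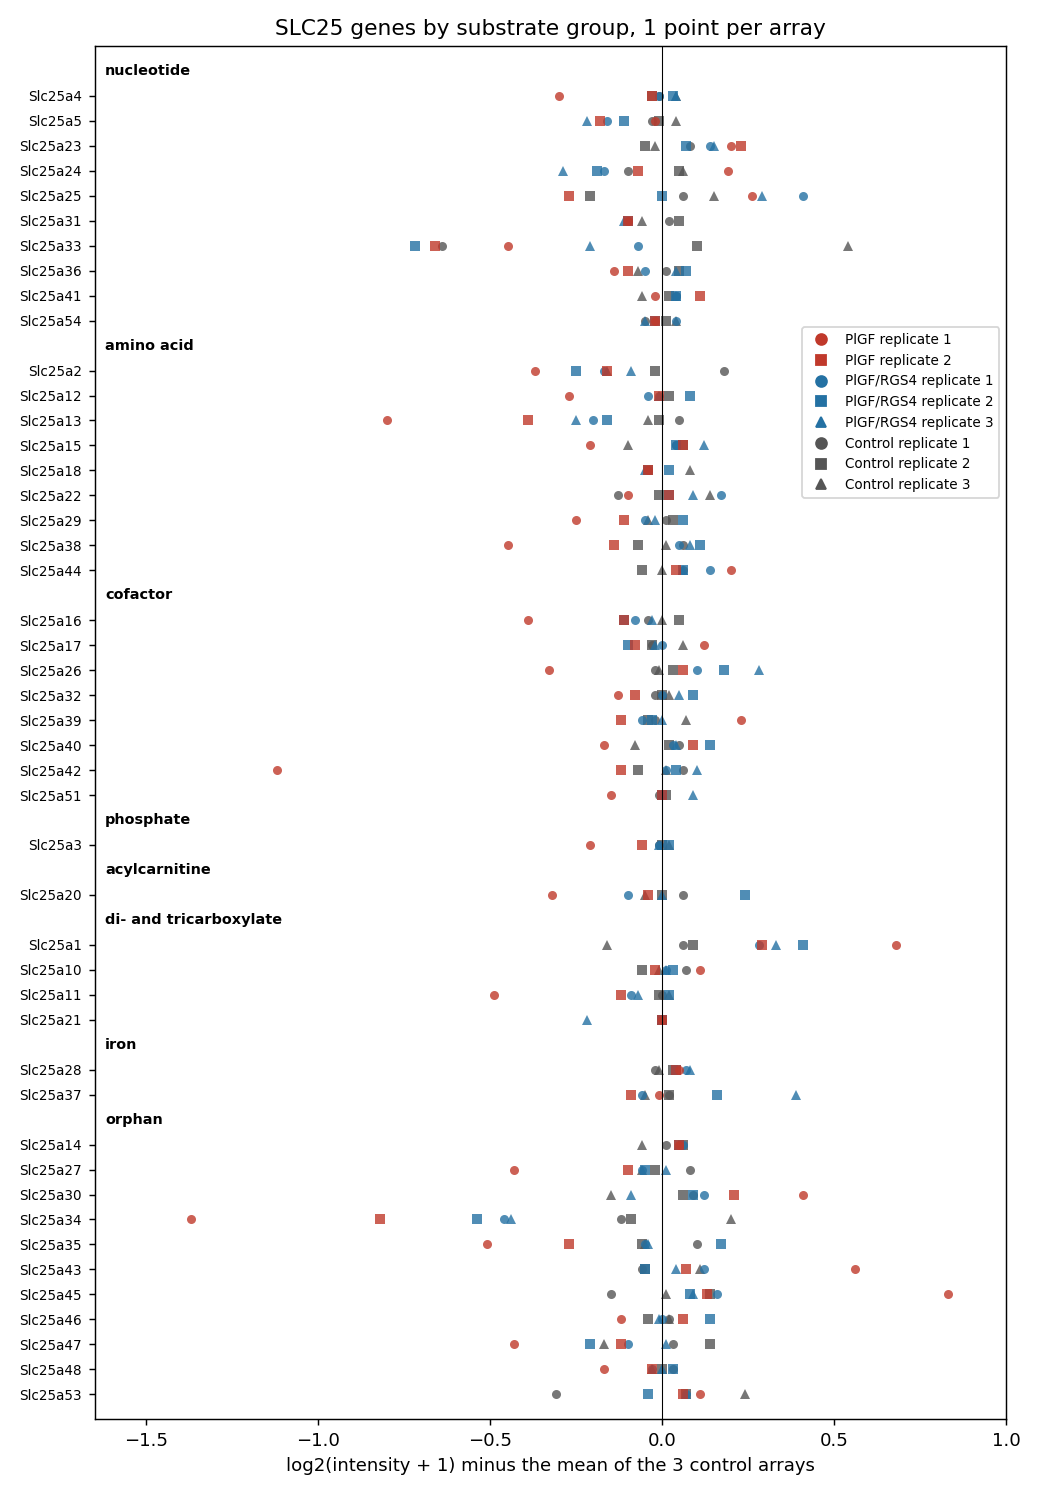
Log2(intensity + 1) of each of the 46 SLC25 genes minus the mean of the 3 control arrays (x axis), 1 row per gene by substrate group and 1 point per array, with color for the group and shape for the replicate number. Slc25a34 has the 2 PlGF arrays at −1.37 and −0.82 and the 3 arrays labelled PlGF/RGS4 between −0.54 and −0.44, while Slc25a42 has only PlGF replicate 1 far below 0.

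Slc25a34, on chromosome 4, is an orphan carrier whose solute is not settled. It is a relative of the oxaloacetate carrier of yeast. Its intensity was 372.0 and 546.6 in the PlGF hearts, 702.3, 664.5 and 713.7 in the PlGF/RGS4-labelled arrays, and 889.3, 910.7 and 1113.4 in control. The 3 groups did not overlap, PlGF being lowest and control highest. It fell in PlGF, with a log2 fold change of −1.10 ± 0.16 (SE), which is 2.14-fold lower (limma adjusted p = 0.0255), and this was the lowest value of the family. The arrays labelled PlGF/RGS4 stood at −0.48 ± 0.15 from control (limma adjusted p = 0.917, unadjusted p = 0.0127), and PlGF at −0.62 ± 0.16 from them (adjusted p = 0.128). Both contrasts with control use the same 3 control arrays. Without PlGF replicate 1 the value against control was −0.82. It was −1.29 for PlGF replicate 1 against control replicate 2, the arrays of low Xist. For PlGF replicate 2 against control replicates 1 and 3, of high Xist, it was −0.86. Xist class thus cannot be told apart from the split of the PlGF arrays. The call was lost when any 1 of the 3 control arrays or of the 3 arrays labelled PlGF/RGS4 was left out, with an adjusted p of up to 0.107.

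Slc25a13, on chromosome 6, encodes citrin, an aspartate/glutamate carrier of the malate-aspartate shuttle that is best known from liver. It read 1039.5 and 1383.3 units in PlGF, 1574.6, 1623.7 and 1517.4 in the PlGF/RGS4-labelled arrays, and 1869.8, 1795.9 and 1763.1 in control. Here too the 3 groups were apart, in the order seen for Slc25a34. It fell in PlGF, with a log2 fold change of −0.59 ± 0.11 (SE), 1.51-fold lower (limma adjusted p = 0.0432). The arrays labelled PlGF/RGS4 differed from control by −0.20 ± 0.10 (adjusted p = 0.995) and PlGF from them by −0.39 ± 0.11 (adjusted p = 0.146). Without PlGF replicate 1 the value was −0.39. Within the same arrays of low and of high Xist it was −0.79 and −0.39, again with a single PlGF array in each. Leaving out any 1 control array or any 1 array labelled PlGF/RGS4 ended this call as well, with an adjusted p of up to 0.141. For 2 arrays against 3 the smallest p of a two-sided exact permutation test is 0.1, and both genes gave 0.1.

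Slc25a42, on chromosome 8, encodes a carrier of coenzyme A and adenine nucleotides. It is on the list of genes that the study chose from these same arrays, so its direction is no independent evidence. Its intensity was 321.0 and 643.2 in PlGF, 703.0, 715.7 and 744.5 in the PlGF/RGS4-labelled arrays, and 725.4, 663.2 and 703.2 in control. Both PlGF arrays were the lowest of the 8, and PlGF replicate 1 lay far below the second. The log2 fold change was −0.62 ± 0.24 (SE; limma adjusted p = 0.192), with a 95% interval of −1.19 to −0.05. Without PlGF replicate 1 the value was −0.12, and with replicate 1 as the only PlGF array −1.12 (adjusted p = 0.000173), so that array decides its size. In the PlGF/RGS4-labelled arrays it was 0.05, with an interval of −0.46 to 0.56.

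The DNA just before the start of these 3 genes is shown, since they are the members called in PlGF and the one on the list of the study. Sequences are from RefSeq (mouse build GRCm38.p6), each the 250 bases before the start, 5′ to 3′ on the strand of the gene, and 36 of the 46 carriers had an entry. Capitals mark matches to 4 motifs searched on both strands. These are AAGGTCA (the half-site that estrogen-related receptors bind), GCGCATGC (the core of the NRF1 site), CCAAT and CACGTG (an E-box). Slc25a34 lies at chr4:141623835-141624084, minus strand, Slc25a13 at chr6:6217174-6217423, minus strand, and Slc25a42 at chr8:70212282-70212531, minus strand.
Slc25a34: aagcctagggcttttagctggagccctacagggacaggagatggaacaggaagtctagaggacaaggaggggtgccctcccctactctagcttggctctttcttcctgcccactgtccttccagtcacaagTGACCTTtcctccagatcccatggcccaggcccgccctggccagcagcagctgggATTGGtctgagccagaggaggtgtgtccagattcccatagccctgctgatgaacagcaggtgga
Slc25a13: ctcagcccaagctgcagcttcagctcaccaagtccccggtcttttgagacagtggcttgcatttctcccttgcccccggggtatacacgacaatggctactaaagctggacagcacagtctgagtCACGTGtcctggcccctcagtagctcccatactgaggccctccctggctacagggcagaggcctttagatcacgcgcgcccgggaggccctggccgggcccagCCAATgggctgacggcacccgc
Slc25a42: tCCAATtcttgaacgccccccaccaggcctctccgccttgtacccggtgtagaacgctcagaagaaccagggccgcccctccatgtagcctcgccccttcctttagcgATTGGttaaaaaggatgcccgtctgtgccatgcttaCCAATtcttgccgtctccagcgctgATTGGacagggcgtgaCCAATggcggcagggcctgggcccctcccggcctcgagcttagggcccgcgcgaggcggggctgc
In Slc25a34 the estrogen-related receptor half-site reads TGACCTT and starts at −119, and a CCAAT match reads ATTGG and starts at −64. Slc25a13 holds an E-box at −125 and CCAAT at −22, and Slc25a42 holds 5 CCAAT matches between −249 and −65. No match overlaps another in these stretches. Over 300 bases, from 250 before to 50 after the start, Slc25a34 was the only 1 of the 36 carriers with the half-site, which 5.38% of 27025 genes have. CCAAT was in 19 of the 36 (52.8%, against 41.1% of all genes), the E-box in 7 (19.4%, against 8.09%) and the NRF1 core in 2 (5.56%, against 3.05%). A match says only that the letters are there.

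The aspartate/glutamate pair and its partners in the malate-aspartate shuttle were read together. Slc25a12 encodes aralar, the other aspartate/glutamate carrier, which is the main one of muscle and brain. It read 4775.9 and 5692.0 units in PlGF, 5604.5, 6084.3 and 5695.5 in the PlGF/RGS4-labelled arrays, and 5702.9, 5840.9 and 5698.0 in control. PlGF replicate 2 lay only just under the lowest control array, and the change was −0.14 (interval −0.33 to 0.05, adjusted p = 0.332). The log2 ratio of Slc25a13 to Slc25a12 was lower than in control by 0.53 and 0.37 in the 2 PlGF hearts and by 0.16 to 0.24 in the PlGF/RGS4-labelled arrays (two-sided exact permutation p = 0.1 for each contrast). Slc25a11 encodes the oxoglutarate/malate carrier, the other carrier of the shuttle. It read 6074.1 and 7817.6 in PlGF, 8001.8, 8617.4 and 8080.4 in the PlGF/RGS4-labelled arrays, and 8494.2, 8415.2 and 8598.0 in control. PlGF was below every other array, at −0.30 from control (interval −0.54 to −0.07, adjusted p = 0.138), and the value was −0.12 without PlGF replicate 1. The enzymes of the shuttle gave −0.16 for Mdh1, −0.15 for Mdh2, −0.08 for Got1 and −0.01 for Got2, with adjusted p from 0.185 to 0.869.

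**Figure D2:**
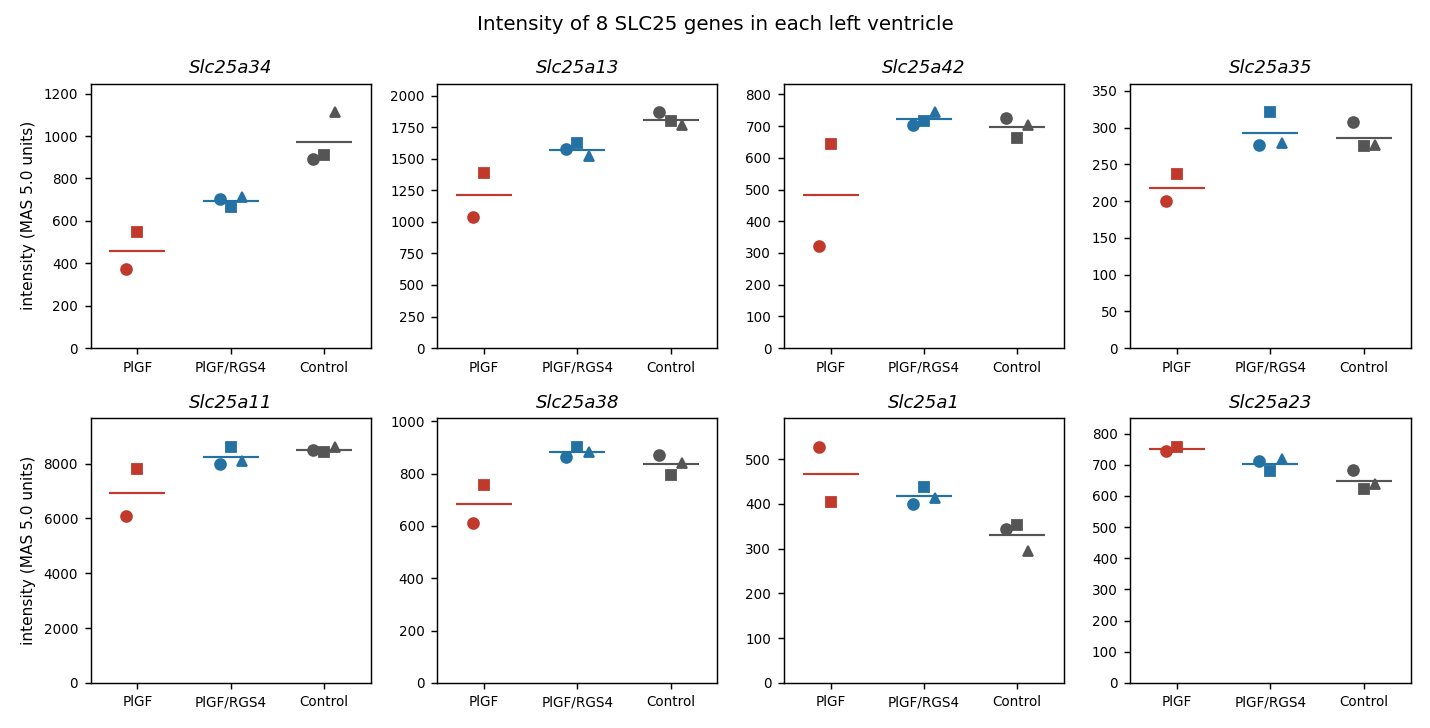
Deposited intensity (y axis, linear, from 0) of 8 SLC25 genes in the PlGF, PlGF/RGS4 and control hearts, with 1 point per array, shape for the replicate number (circle 1, square 2, triangle 3) and a line at the group mean. The groups are apart for Slc25a34 and Slc25a13, PlGF replicate 1 sets Slc25a42 apart, and the group means of Slc25a1 and Slc25a23 are highest in PlGF.

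Of the 9 amino acid carriers, 1 fell in PlGF (Slc25a13, where 0.748% of all genes did), 4 had an unadjusted p under 0.05 on the lower side and 0 on the higher side (against 11.7% and 10.9% of all genes), and the median was −0.14. Slc25a38 encodes the glycine carrier that feeds heme synthesis, known from red cell precursors. It read 612.5 and 757.7 in PlGF, 864.0, 902.5 and 884.2 in the PlGF/RGS4-labelled arrays, and 871.5, 796.3 and 841.3 in control, with PlGF lowest. The change was −0.29 from control (interval −0.51 to −0.08, adjusted p = 0.121) and −0.37 from the PlGF/RGS4-labelled arrays (unadjusted p = 0.00394, adjusted p = 0.107). Slc25a29, which carries basic amino acids, read 134.6 and 148.6 in PlGF, 154.6, 167.8 and 158.0 in the PlGF/RGS4-labelled arrays, and 161.0, 164.1 and 156.1 in control (−0.18, adjusted p = 0.155). Slc25a2, an ornithine carrier gene, was dim, at 45.2 and 52.3 in PlGF, 52.1, 49.3 and 55.0 in the PlGF/RGS4-labelled arrays, and 66.6, 58.0 and 52.4 in control. Its lowest control array lay 0.1 units above PlGF replicate 2. The glutamate carriers Slc25a18 and Slc25a22 and the ornithine carrier Slc25a15 were within 0.10 of control on the log2 scale, and Slc25a44, which carries branched-chain amino acids, was at 0.12 (interval −0.03 to 0.27).

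Adenine nucleotide carriers, which exchange ATP for ADP, are the textbook carriers of the heart, and none was called. Slc25a4, the form of heart and skeletal muscle, read 9499.8 and 11430.6 in PlGF, 11635.5, 11986.9 and 12029.9 in the PlGF/RGS4-labelled arrays, and 11635.5, 11429.5 and 12072.9 in control. PlGF replicate 1 was low and replicate 2 lay within the control range. The change was −0.17, with an interval of −0.35 to 0.02 (adjusted p = 0.258), and −0.03 without PlGF replicate 1. Slc25a5, the form of dividing tissues, read 6019.8 and 5385.3 in PlGF, 5457.9, 5640.1 and 5230.0 in the PlGF/RGS4-labelled arrays, and 5966.3, 6032.0 and 6284.3 in control. Here the PlGF/RGS4-labelled arrays were lower than each control array, at −0.16 (interval −0.30 to −0.03, unadjusted p = 0.0251, adjusted p = 0.945), and PlGF was at −0.10 (adjusted p = 0.406). All 3 probe sets of Slc25a5 were close, at −0.12, −0.10 and −0.10 in PlGF. Slc25a31, the form of testis, was at 25.5 to 28.5 units in all 8 arrays, below the array median.

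The calcium-gated ATP-Mg/phosphate carriers set the size of the adenine nucleotide pool of the matrix. Slc25a23 was among the 4 members with an unadjusted p under 0.05 on the higher side. It read 744.3 and 757.8 in PlGF, 712.5, 679.4 and 718.1 in the PlGF/RGS4-labelled arrays, and 682.9, 623.2 and 637.4 in control. PlGF was above the other 6 arrays, at 0.21 (interval 0.08 to 0.35, adjusted p = 0.0916), and the value stayed at 0.19 to 0.25 when single arrays were omitted. Its relative Slc25a24 read 323.0 and 269.6 in PlGF, 251.3, 246.5 and 230.3 in the PlGF/RGS4-labelled arrays, and 262.7, 291.8 and 293.5 in control. The arrays labelled PlGF/RGS4 were lowest, at −0.22 from control (unadjusted p = 0.0305, adjusted p = 0.945), while PlGF overlapped control. Slc25a36, a pyrimidine nucleotide carrier gene, had both probe sets lower in PlGF than in each control array, at −0.12 (adjusted p = 0.279) for the brighter and −0.21 for the dimmer. Slc25a33, the other pyrimidine nucleotide carrier gene, spread from 196.2 to 446.6 within control alone, and its interval in PlGF was −1.34 to 0.22. The remaining ATP-Mg/phosphate carrier genes, Slc25a25, Slc25a41 and Slc25a54, were between −0.02 and 0.04, and Slc25a25 was the least well measured of them (interval −0.44 to 0.43).

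The single carriers of phosphate and of acylcarnitines were not called. Slc25a3, which supplies phosphate for ATP synthesis, read 6361.5 and 7096.1 in PlGF, 7308.2, 7485.2 and 7308.2 in the PlGF/RGS4-labelled arrays, and 7308.2, 7368.4 and 7454.4 in control. PlGF was lowest, at −0.13 (interval −0.27 to 0.00, adjusted p = 0.221), and at −0.06 without PlGF replicate 1. Slc25a20, which brings acylcarnitines in for fatty acid oxidation, read 2196.3 and 2673.1 in PlGF, 2566.5, 3252.1 and 2750.2 in the PlGF/RGS4-labelled arrays, and 2853.9, 2738.3 and 2647.1 in control. Only PlGF replicate 1 lay outside the control range among the PlGF arrays, and the interval ran from −0.46 to 0.10 (adjusted p = 0.397).

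Slc25a1 was the carrier gene with the highest value in PlGF. It encodes the citrate carrier, which exports citrate for lipid synthesis in the cytosol. Its intensity was 527.6 and 403.7 in PlGF, 399.4, 436.7 and 413.3 in the PlGF/RGS4-labelled arrays, and 344.1, 351.6 and 295.7 in control. The 2 PlGF arrays and the 3 labelled PlGF/RGS4 were above all 3 control arrays and overlapped each other. The log2 fold change was 0.48 in PlGF (interval 0.20 to 0.77, limma adjusted p = 0.0816) and 0.34 in the PlGF/RGS4-labelled arrays (interval 0.08 to 0.59, unadjusted p = 0.0175, adjusted p = 0.941), with the control arrays shared. Without PlGF replicate 1 it was 0.29. Of the other di- and tricarboxylate carriers, Slc25a10, which exchanges malate or succinate for phosphate, read 333.5 and 302.8 in PlGF, 309.4, 314.8 and 309.4 in the PlGF/RGS4-labelled arrays, and 323.7, 296.2 and 304.9 in control. Its change was 0.04 (interval −0.10 to 0.19), with −0.02 without PlGF replicate 1 and −0.01 with each array centred on its median. Slc25a21, the oxodicarboxylate carrier gene, was listed at 17.0 units in 7 arrays and 14.5 in PlGF/RGS4 replicate 3.

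Among the 8 cofactor carriers measured, 0 were called in PlGF, 2 on the lower and 0 on the higher side had an unadjusted p under 0.05 (against 11.7% and 10.9% of all genes), and the median was −0.09. The 2 were Slc25a42 and Slc25a16, which has also been tied to coenzyme A. Slc25a16 read 837.1 and 1019.5 in PlGF, 1039.5, 1013.6 and 1078.4 in the PlGF/RGS4-labelled arrays, and 1064.4, 1134.7 and 1095.3 in control. PlGF was below each control array, at −0.25 (interval −0.45 to −0.05, adjusted p = 0.147), and overlapped the PlGF/RGS4-labelled arrays. Slc25a26 encodes the carrier of S-adenosylmethionine, the methyl donor. It read 426.1 and 556.9 in PlGF, 573.0, 605.0 and 649.9 in the PlGF/RGS4-labelled arrays, and 528.2, 544.5 and 532.3 in control. The arrays labelled PlGF/RGS4 were highest, and PlGF differed from them by −0.32 (unadjusted p = 0.0213, adjusted p = 0.189), but replicate 2 of PlGF was above control. Slc25a32, a folate and FAD carrier gene, read 327.4 and 339.0 in PlGF, 357.4, 380.6 and 370.0 in the PlGF/RGS4-labelled arrays, and 352.5, 358.6 and 361.9 in control (−0.10, adjusted p = 0.271). The glutathione carriers Slc25a39 and Slc25a40 and the NAD carrier Slc25a51 were within 0.10 of control, with intervals inside −0.25 to 0.28, and Slc25a17, a carrier of cofactors in the peroxisome, was at 0.02 (interval −0.15 to 0.19).

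Both iron carriers, the mitoferrins, were measured. Slc25a37, the form of red cell precursors, read 344.7 and 325.7 in PlGF, 333.8, 388.7 and 456.4 in the PlGF/RGS4-labelled arrays, and 353.2, 353.2 and 336.0 in control (−0.05 in PlGF, interval −0.33 to 0.22). Alas2, which starts heme synthesis in red cell precursors and is the 1 reticulocyte marker measured of 4 listed, read 176.2 and 297.8 in PlGF, 194.9, 335.9 and 692.8 in the PlGF/RGS4-labelled arrays, and 307.8, 485.0 and 381.9 in control (−0.75 in PlGF, adjusted p = 0.403). Both PlGF arrays were below control for Alas2. The PlGF/RGS4-labelled arrays stood in the same order for Alas2 and Slc25a37, but the 2 PlGF arrays stood in opposite order. In control, the arrays with the lowest and the highest Alas2 had the same Slc25a37 value, 353.2. The part of red cell precursors in Slc25a37 and Slc25a38 was not tested. Slc25a28, the more widely used form, read 376.2 and 373.7 in PlGF, 380.4, 373.1 and 383.0 in the PlGF/RGS4-labelled arrays, and 358.7, 370.0 and 361.1 in control. The 2 PlGF arrays and the 3 labelled PlGF/RGS4 were above control, yet the change in PlGF was only 0.05 (interval −0.06 to 0.15), and −0.01 when arrays were centred on their medians.

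The 11 orphan members had 1 call in PlGF (Slc25a34, where 0.748% of all genes were lower), 3 with an unadjusted p under 0.05 on the lower side and 2 on the higher side (against 11.7% and 10.9% of all genes), with a median of −0.03. Slc25a35, the closest relative of Slc25a34 in its group, read 200.4 and 236.7 in PlGF, 276.7, 321.4 and 279.0 in the PlGF/RGS4-labelled arrays, and 307.4, 275.1 and 276.7 in control. PlGF was lowest, at −0.39 from control (interval −0.63 to −0.16, adjusted p = 0.083) and −0.42 from the PlGF/RGS4-labelled arrays (unadjusted p = 0.00368, adjusted p = 0.105). The log2 ratio of Slc25a34 to Slc25a35 was lower than in control by 0.71 in PlGF and by 0.51 in the PlGF/RGS4-labelled arrays (two-sided exact permutation p = 0.1 each). Slc25a27 and Slc25a30 belong to the branch of the uncoupling proteins. Slc25a27 read 157.4 and 198.2 in PlGF, 203.8, 204.5 and 213.4 in the PlGF/RGS4-labelled arrays, and 224.4, 209.9 and 202.8 in control (−0.26, adjusted p = 0.169). Slc25a30 read 409.2 and 356.0 in PlGF, 334.7, 327.7 and 289.9 in the PlGF/RGS4-labelled arrays, and 327.7, 321.2 and 278.2 in control. In this case PlGF was above the other 6 arrays, at 0.31 (interval 0.07 to 0.55, adjusted p = 0.14). Slc25a45 had the same size of change as Slc25a1 at 0.48, but only PlGF replicate 1 (260.3 units) stood above the other arrays (131.8 to 163.7), and its adjusted p was 0.183. The other 6 orphan members, Slc25a14, Slc25a43, Slc25a46, Slc25a47, Slc25a48 and Slc25a53, ran from −0.27 for Slc25a47 (interval −0.56 to 0.01) to 0.32 for Slc25a43 (interval −0.01 to 0.64), and none of them reached an unadjusted p under 0.05.

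**Figure D3:**
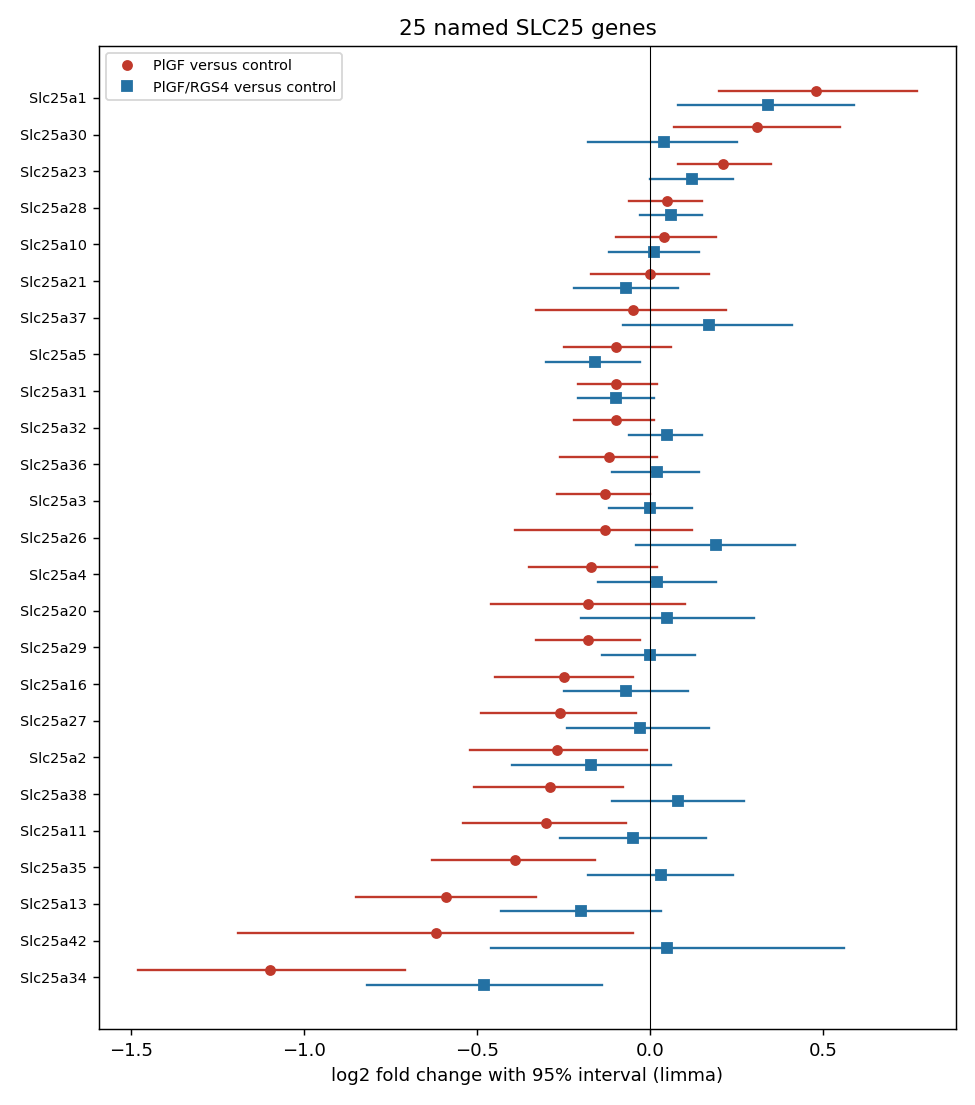
Log2 fold change with its 95% interval (limma; x axis) of the 25 SLC25 genes named by a fixed rule, for PlGF versus control (circles) and PlGF/RGS4 versus control (squares), which share the control arrays. Slc25a34 and Slc25a13 are the 2 that passed an adjusted p under 0.05 in PlGF versus control, while PlGF versus PlGF/RGS4 passed for neither, and Slc25a42 has the widest interval in PlGF, −1.19 to −0.05.

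In the PlGF/RGS4-labelled arrays, 0 of the 46 carriers were called against control in either direction, with 0.0151% of all genes higher and 0.0% lower by that rule. At an unadjusted p under 0.05 there were 3 lower (6.52%, against 2.28% of all genes), namely Slc25a5, Slc25a24 and Slc25a34, and 1 higher (2.17%, against 2.74%), Slc25a1. Arrays did not overlap for 5 lower (10.9%, against 5.85%) and 3 higher members (6.52%, against 6.96%). The value was below 0 for 19 members (41.3%, against 48.4%), and the median of the family was 0.02, next to 0.00 over all genes. Set directly against the PlGF/RGS4-labelled arrays, PlGF gave 0 calls in the family, where 1.1% of all genes were higher and 0.0853% lower. By the unadjusted rule, 11 carriers were lower in PlGF (23.9%, against 10.6% of all genes) and 2 higher (4.35%, against 8.95%), and the median was −0.11, next to −0.03. A value below 0 was seen for 31 (67.4%, against 61.0%). No overlap was seen for 13 lower (28.3%, against 19.9%) and 3 higher (6.52%, against 12.6%). This contrast is the test of whether PlGF differs from the arrays labelled PlGF/RGS4, and it passed for none of the members.

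PlGF replicate 1 was farther from control than replicate 2, over the carriers and over all genes. Its median over the family was −0.12 from control, against −0.04 in PlGF replicate 2 and −0.00 to 0.03 in the PlGF/RGS4-labelled arrays. It lay below the control range for 24 members (52.2%, against 43.5% of all genes) and above it for 12 (26.1%, against 28.7%). Replicate 2 lay below it for 21 (45.7%, against 29.0%) and above it for 8 (17.4%, against 23.1%). In 35 of the 46, replicate 1 was the PlGF array farther from the control mean. Fitted with PlGF replicate 1 as the only PlGF array, 18 carriers (39.1%) passed an adjusted p under 0.05, against 29.7% of all genes, and with replicate 2 alone 2 (4.35%) passed, against 1.84%. The higher count with replicate 1 thus came with a higher share of all genes. For PlGF versus the PlGF/RGS4-labelled arrays, 18 carriers (39.1%, against 28.0% of all genes) passed with replicate 1 alone and 0 (against 1.37%) with replicate 2 alone. The lone array is then assumed to vary like the other groups. Within the 3 arrays of low Xist, to which replicate 1 belongs, the median of the family was −0.14 in PlGF against control, and within the 5 of high Xist −0.05. Each class holds a single PlGF array, so Xist class and PlGF replicate cannot be told apart.

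Some markers of other cells differed in PlGF too. Of 13 leukocyte markers measured, 7 were higher at an adjusted p under 0.05 (against 1.79% of all genes) and 0 lower, and the median of the 13 was 1.40 above control, 2.12 in replicate 1 and 0.81 in replicate 2. Their summed intensity was 8644.4 to 17040.0 units in PlGF, against 4025.4 to 5315.5 in the PlGF/RGS4-labelled arrays and 4493.6 to 4712.0 in control. The 6 ventricular cardiomyocyte markers were bright in every array and 0 were called, with a median of −0.05 in PlGF and sums of 71006.2 to 79875.8, against 78412.9 to 79212.6 in the PlGF/RGS4-labelled arrays and 79804.1 to 81015.1 in control. Ryr2, the calcium release channel gene, had the lowest value of them, −0.73 (adjusted p = 0.107). Of 4 endothelial markers 1 was higher by the adjusted rule (against 1.79% of all genes), Cdh5 at 0.30 (adjusted p = 0.0374), and 0 were lower. Both PlGF arrays lay above all 3 control arrays for 3 of the 4 (against 14.3% of all genes) and below them for 0. Kdr was at 0.57 (adjusted p = 0.0545), Tie1 at 0.15 (adjusted p = 0.26) and Pecam1 at −0.03 (adjusted p = 0.81). Of 4 atrial and 4 adipose markers, 0 were called in PlGF. The part of these in the values of the carriers was not tested.

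Genes that work beside the carriers were read from lists chosen with earlier results known. Of 4 measured family members under other symbols, 0 were called in PlGF, and the median was −0.13. An unadjusted p under 0.05 was reached by 2 on the lower and 0 on the higher side (against 11.7% and 10.9% of all genes). Ucp3, the muscle form of the uncoupling proteins, read 235.9 and 369.0 in PlGF, 685.1, 253.5 and 505.6 in the PlGF/RGS4-labelled arrays, and 541.8, 582.8 and 674.7 in control, at −1.01 (adjusted p = 0.182), and Mtch2, an outer membrane relative, was at −0.19 (adjusted p = 0.125). Of 15 genes for the import of carriers into the inner membrane, 0 were called, and 6 on the lower and 0 on the higher side had an unadjusted p under 0.05 (against 11.7% and 10.9% of all genes), with a median of −0.08. Of 20 other mitochondrial solute transporters, 0 were called, and 8 on the lower and 3 on the higher side reached that p (against the same 11.7% and 10.9%), with a median of −0.12. These include Abcb6 at −0.42 and Abcb8 at −0.64, both ABC transporters, and Tspo, an outer membrane protein that leukocytes also express, at 0.87 (adjusted p = 0.0579, 0.0725 and 0.0687). Of 21 enzymes that hand substrates to carriers, 0 were called, and 7 on the lower and 1 on the higher side reached that p (against 11.7% and 10.9%), with a median of −0.16. The 7 include Bcat2 at −0.37 (limma unadjusted p = 0.0228). Bcat2 is on the list that the study chose from these same arrays, so its direction is no independent evidence. Pank1, a pantothenate kinase that opens coenzyme A synthesis, and Pank4, a relative of it, gave −0.53 and −0.44 (adjusted p = 0.0724 and 0.084), while Pank2, Pank3 and Coasy, which also serve coenzyme A synthesis, gave 0.02, −0.07 and −0.04.

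**Figure D4:**
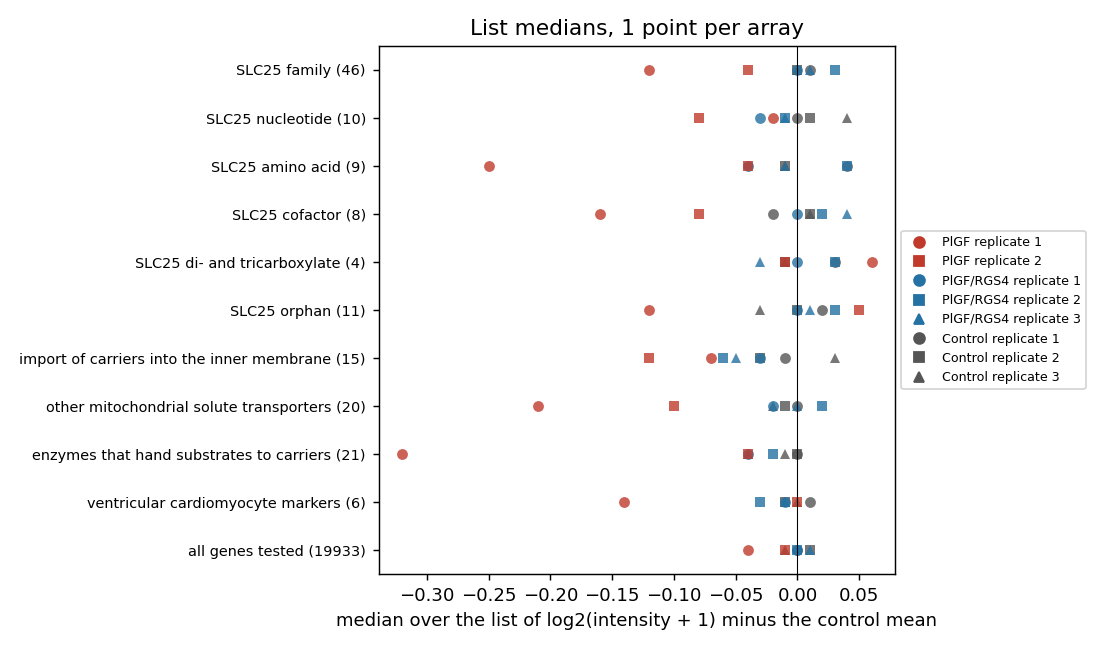
Median over each list of log2(intensity + 1) minus the control mean (x axis), 1 row per list with its number of genes and 1 point per array, with color for the group and shape for the replicate number. The SLC25 family lies at −0.12 in PlGF replicate 1 and −0.04 in PlGF replicate 2, and the enzymes that hand substrates to carriers at −0.32 and −0.04, while all genes lie at −0.04 and −0.01.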

How the data were processed

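Left ventricular RNA of 8 mice was labelled with biotin and hybridised to Affymetrix mouse gene arrays. The authors deposited 1 linear intensity per probe set and array, which the methods describe as globally scaled MAS 5.0 values (MAS5 in the submitters' processing notes). The deposited intensities ran from 7.1 to 21704, and array means from 508.7 to 514.2. A value was shared by at least 2 arrays in 57.6% of all probe sets and in 18 of the 46 carriers. Of the 3302 probe sets with a mean above 1000, 25.3% had such a value. The step that made equal values is not given in the sources used here. Detection calls were not used, so dim members (9 below the array median in all 8 arrays, 32 above it in all) have no limit of detection, and the number of arrays limits the precision.

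Of 28440 probe sets, the 21780 with 1 gene symbol in the platform annotation were kept, 1618 with several and 5042 without a name here were left out, and the brightest per gene was used (43 carriers have a single one). Log2(intensity + 1) of all 8 arrays was fitted with 3 group means in limma 3.58.1 (R 4.3.3, lmFit and eBayes, prior of 2.41 degrees of freedom), and p was adjusted by Benjamini-Hochberg over 19933 genes with a threshold of 0.05. A fold change on this scale understates the change of dim genes. Paralog ratios had a two-sided exact permutation test. An SE is limma's, and intervals cover 95%. The code was tested on simulated data. The arrays are labelled biological replicates, 1 heart each. All value columns were used (0 left out).

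Members, lists, tests and alternatives were chosen with earlier results of these data known. Genes were named if they passed an adjusted p under 0.05. In each substrate group up to 4 with the smallest unadjusted p in PlGF versus control were named as well. Slc25a42 and the textbook carriers Slc25a3, Slc25a4, Slc25a5 and Slc25a20 were added. The plan was to name up to 3 genes of each other list too, but this was done for only some of them. The leukocyte, atrial, adipose and carrier import lists were described without naming single genes. Slc25a12, Slc25a24, Slc25a33, Slc25a45, the shuttle enzymes, Bcat2 and further genes of the other lists were named after their values were seen. Alternatives were other scalings, filters, probe set rules, priors, weights, tests, a pseudocount of 16, a replicate block, a Xist covariate and the omission of single arrays. The comparison within the arrays of low and of high Xist was added after seeing the data.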

Additional observations from a re-analysis of the deposited data

How the results depend on the processing

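With 2 PlGF arrays, the calls rest on a spread pooled over the 3 groups, and dim carriers have no floor here. The 2 calls in PlGF versus control became 0 with array weights, the one-way ANOVA spread, a fit to just the 2 groups in question, the methods' t-test, and the replicate number as a block, and 1 (Slc25a34) with Xist as a covariate or a pseudocount of 16. With single arrays left out the count ran from 0, when a control array or a PlGF/RGS4-labelled array was missing, to 18 without PlGF replicate 2 (39.1%, against 29.7% of all genes), and in PlGF versus PlGF/RGS4 also from 0 to 18 (39.1%, against 28.0%). No carrier was called under any alternative in the PlGF/RGS4-labelled arrays versus control. The median of the family was −0.13 with each array centred on its median, and −0.12 to −0.04 with an array left out. For PlGF versus PlGF/RGS4 it was −0.15 and −0.16 to −0.04. Slc25a34 passed in 10 and Slc25a13 in 8 of 21 alternatives, and both stayed lower in all 21. The sign of Slc25a10 turned (−0.01 with median centring, −0.02 to 0.11 with an array left out), as did that of Slc25a28 (−0.01 with median centring) and Slc25a26 (−0.33 to 0.06 with an array left out). The cause of these shifts was not tested. Deviations of same-numbered arrays correlated at −0.217 to 0.296, and those of differently numbered arrays at −0.235 to 0.217. With so few arrays this cannot decide whether the replicate numbers pair the hearts or mark a batch. With the block, Slc25a34 stood at −1.04 (limma adjusted p = 0.0951) and Slc25a13 at −0.61 (adjusted p = 0.121).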
